A study of Mus musculus with 12 samples.

Results

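The integrin and laminin chains were the 37 genes, of 55401 in the deposited counts table, whose symbols name an integrin alpha chain (18 genes), one of the integrin beta chains 1 to 8 (8 genes) or a laminin chain (11 genes). They were chosen by symbol alone. The counts come from mouse left ventricle in 4 groups of 3 libraries: T497A after transverse aortic constriction (TAC), wild type (WT) after TAC, T497A after a sham operation, and WT after a sham operation. T497A mice carry a Prkca gene, for protein kinase C alpha, in which a threonine is exchanged for alanine. TAC narrows the aorta, so that the ventricle works against a raised pressure. All 4 groups share the age at surgery (10 weeks) and the time to tissue collection (1 week, at 11 weeks of age). Every library title ends in the same replicate tag. A 27-gauge needle is named for the surgery. The labels used here name neither the strain or sex nor how many copies of the T497A allele a mouse carried. They number the libraries of a group as hearts 1 to 3 without saying in words that each came from its own animal. The p-values therefore measure the spread between these libraries.

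Integrins are receptors of the cell surface, each made of 1 alpha and 1 beta chain. They hold a cell to the matrix around it and pass force and signals in both directions, through talin, kindlin and other proteins at the cell side of the adhesion. Laminins are long, cross-shaped trimers of 1 alpha, 1 beta and 1 gamma chain. They assemble into the sheet of the basement membrane, to which collagen IV, nidogen and perlecan are joined. In heart muscle each myocyte and each capillary is wrapped in such a sheet. The beta 1 chain pairs with many alpha chains, among them alpha 7, the main laminin receptor of mature striated muscle, and alpha 5, a fibronectin receptor. The beta 2 chain, in contrast, is found on leukocytes.

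Windows of 250 bases before the transcription start were taken from RefSeq on build GRCm38.p6 and matched 23 of the 37 genes. Shown first are the windows of 2 collagen receptor chains from the same stretch of chromosome 13, of which Itga1 differed by 1.26-fold and Itga2 by 3.64-fold between WT TAC and WT sham. Then come those of Itgb1 and Itgb5, the beta chains of integrins with the highest levels, both higher in WT TAC than in all other groups. None of the 4 windows overlaps an exon annotated in GENCODE M21. Capitals mark GGGCGG, the GC box, and CATTCC, a TEAD site, on either strand. Letters run 5′ to 3′ on the gene's own strand.
Itga1, chr13:115101965-115102214, minus strand: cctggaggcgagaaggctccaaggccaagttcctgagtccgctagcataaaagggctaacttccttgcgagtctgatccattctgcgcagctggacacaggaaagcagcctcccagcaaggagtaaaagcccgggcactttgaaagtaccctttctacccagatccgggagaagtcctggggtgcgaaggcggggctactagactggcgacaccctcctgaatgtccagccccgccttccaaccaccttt
Itga2, chr13:114932101-114932350, minus strand: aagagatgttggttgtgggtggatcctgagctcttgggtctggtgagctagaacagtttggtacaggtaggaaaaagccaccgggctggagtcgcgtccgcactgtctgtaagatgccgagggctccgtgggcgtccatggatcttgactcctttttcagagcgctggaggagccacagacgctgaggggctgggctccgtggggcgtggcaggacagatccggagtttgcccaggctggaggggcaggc
Itgb1, chr8:128685404-128685653, plus strand: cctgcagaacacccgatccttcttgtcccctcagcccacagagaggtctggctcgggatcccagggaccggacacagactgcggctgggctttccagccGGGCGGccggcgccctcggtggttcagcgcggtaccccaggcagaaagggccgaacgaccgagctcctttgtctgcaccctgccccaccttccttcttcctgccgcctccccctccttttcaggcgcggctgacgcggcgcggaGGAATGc
Itgb5, chr16:33829415-33829664, plus strand: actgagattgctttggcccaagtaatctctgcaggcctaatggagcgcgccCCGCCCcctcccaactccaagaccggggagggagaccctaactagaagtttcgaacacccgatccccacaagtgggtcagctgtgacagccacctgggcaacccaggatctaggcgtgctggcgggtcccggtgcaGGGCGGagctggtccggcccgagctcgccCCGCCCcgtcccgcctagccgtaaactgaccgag
The Itgb5 window held 3 GC boxes and that of Itgb1 held 1 GC box and 1 TEAD site, while neither collagen receptor window held either motif. Of 32851 RefSeq windows of the same length, 32.7% held GGGCGG or its complement CCGCCC, and 12.6% held CATTCC or its complement GGAATG. The TATA box letters TATAAA (12.4% of all windows) were in none of the 4. Nor were the AP-1 letters TGANTCA (6.75%), and the motifs do not overlap each other. These matches describe the letters only.

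The libraries held 58932759 to 72594085 counted reads. After genes with low counts were set aside 17699 genes remained, with all 37 chains among them. Levels are given as CPM, read counts relative to the library total after scaling with TMM factors, which were 1.13 to 1.21 in WT TAC and 0.910 to 0.988 elsewhere. Called means an adjusted p under 0.05 in edgeR's quasi-likelihood test, by the Benjamini-Hochberg method over the 17699 genes. Libraries labelled T497A sham stand apart: Xist was at 160 to 215 CPM there and at most 0.751 CPM in the other 9 libraries. The Y-linked Ddx3y was at 0.0999 to 0.396 CPM there against 73.6 to 108 CPM in the rest. In a comparison that uses these libraries, the genotype label and what comes with the sex-linked transcripts cannot be told apart. Of 104 autosomal genes called and at least 4-fold apart between the sham groups, 95 had the opposite sign between the TAC groups. Between the TAC groups 71 of the 104 were called with the opposite sign and 1 with the same sign. Of the 104, 33 lie on chromosome 11 (31.7%, against 8.25% of the autosomal genes tested), as do Itga2b, Itga3, Itgae, Itgb3 and Itgb4. Labels are used here as given, and whether any were exchanged was not tested. A direction between T497A and WT, a response to TAC in T497A or in WT, and the interaction are therefore each between labels. Calls in T497A TAC against T497A sham are given with the value against WT sham as well. Gene counts cannot show a point mutation. Prkca itself was at 43.7 to 50.3 CPM in T497A TAC, 49.2 to 51.0 CPM in WT TAC, 31.1 to 35.7 CPM in T497A sham and 42.2 to 47.4 CPM in WT sham. The cell type label says cardiomyocyte, yet markers of other cells were present in every library. Myl7, 1 of 8 atrial markers, was at 9.47 to 12.8 CPM in T497A TAC and 16.6 to 45.1 CPM in WT TAC. It was at 63.6 to 261 CPM in T497A sham and 6.64 to 84.5 CPM in WT sham. The part of atrial tissue in the results was not tested. Summed fibroblast markers (12 genes) ran 3266 to 4522 CPM in T497A TAC, 9857 to 19468 CPM in WT TAC, 3019.8 to 3879 CPM in T497A sham, and 3005 to 3381 CPM in WT sham. The 16 leukocyte and macrophage markers summed to 515 to 555 CPM in T497A TAC, 750.2 to 1173 CPM in WT TAC, 429.7 to 514 CPM in T497A sham, and 371 to 452 CPM in WT sham. In bulk tissue, fewer cells of a type and less RNA per cell cannot be told apart.

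After pressure overload 16 of these receptor and basement membrane genes were called in T497A ventricles, in both directions, and 29 in WT ventricles, nearly all of them higher. In T497A TAC against T497A sham 10 of the 37 chains were higher (12.9% of all genes tested were) and 6 lower (11.4% of all genes). The median log2 fold change of the 37 was 0.07 against 0.00 over all genes. The 6 lower chains were 3 without T497A sham 3, without WT TAC 1 or without T497A TAC 3. They were also 3 when libraries were scaled by their totals alone, which left the 10 higher ones at 10. Against WT sham, T497A TAC ventricles had 9 chains higher (6.12% of all genes) and none lower (3.9% of all genes). At an unadjusted p under 0.05 that last count was 2, and DESeq2 called 1 lower and limma-voom 2. Without T497A TAC 2 the 9 became 5. Without T497A sham 2 the count of 0 became 1, and without WT TAC 2 it became 2. In WT TAC against WT sham 27 chains were higher (25.9% of all genes) and 2 were lower (24% of all genes), with a median of 0.83 against 0.03 over all genes. Higher were 21 of 26 integrin chains and 6 of 11 laminin chains, and the 2 lower ones were Lamb3 and Itgb6. The 2 became 4 without WT TAC 2. Lama1, which passed the filter on low counts through WT TAC alone, is among the higher ones, and without it 26 of 36 chains and 5 of 10 laminin chains were higher.

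Set directly against WT TAC, T497A TAC ventricles had 23 of the 37 chains lower (17.9% of all genes were) and 2 higher (17.8% of all genes), with a median log2 fold change of -0.54. Without Lama1 the lower ones were 22 of 36. Every T497A TAC library was below every WT TAC library in 25 of the 37, Lama1 among them, and the share of all genes for which this holds was not counted. The difference between the responses to TAC, T497A minus WT, was called below 0 in 21 chains (14.2% of all genes) and above 0 in 3 (15.3% of all genes), and its median was -0.56. Between the sham groups 3 chains were higher in T497A sham (2.99% of all genes) and 4 lower (2.8% of all genes). Higher were Itgae, Itga3 and Lama5, and lower Itga6, Itga9, Itgb6 and Lama4. These small counts hang on single libraries. Without T497A sham 2 the 3 became 5, without WT TAC 2 they became 6, and the 4 became 2 without WT sham 1 and 1 without WT sham 3. WT TAC against T497A sham, the pairing that crosses genotype, had 23 higher (25.6% of all genes, and 22 of 36 without Lama1) and 3 lower (24.6% of all genes), the 3 becoming 5 without WT TAC 2. WT TAC 2 was the highest of the 12 libraries in 20 of the 37 chains, and it was also the highest in summed fibroblast and leukocyte markers. The share of all genes in which WT TAC 2 was highest was not counted.

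**Figure D1:**
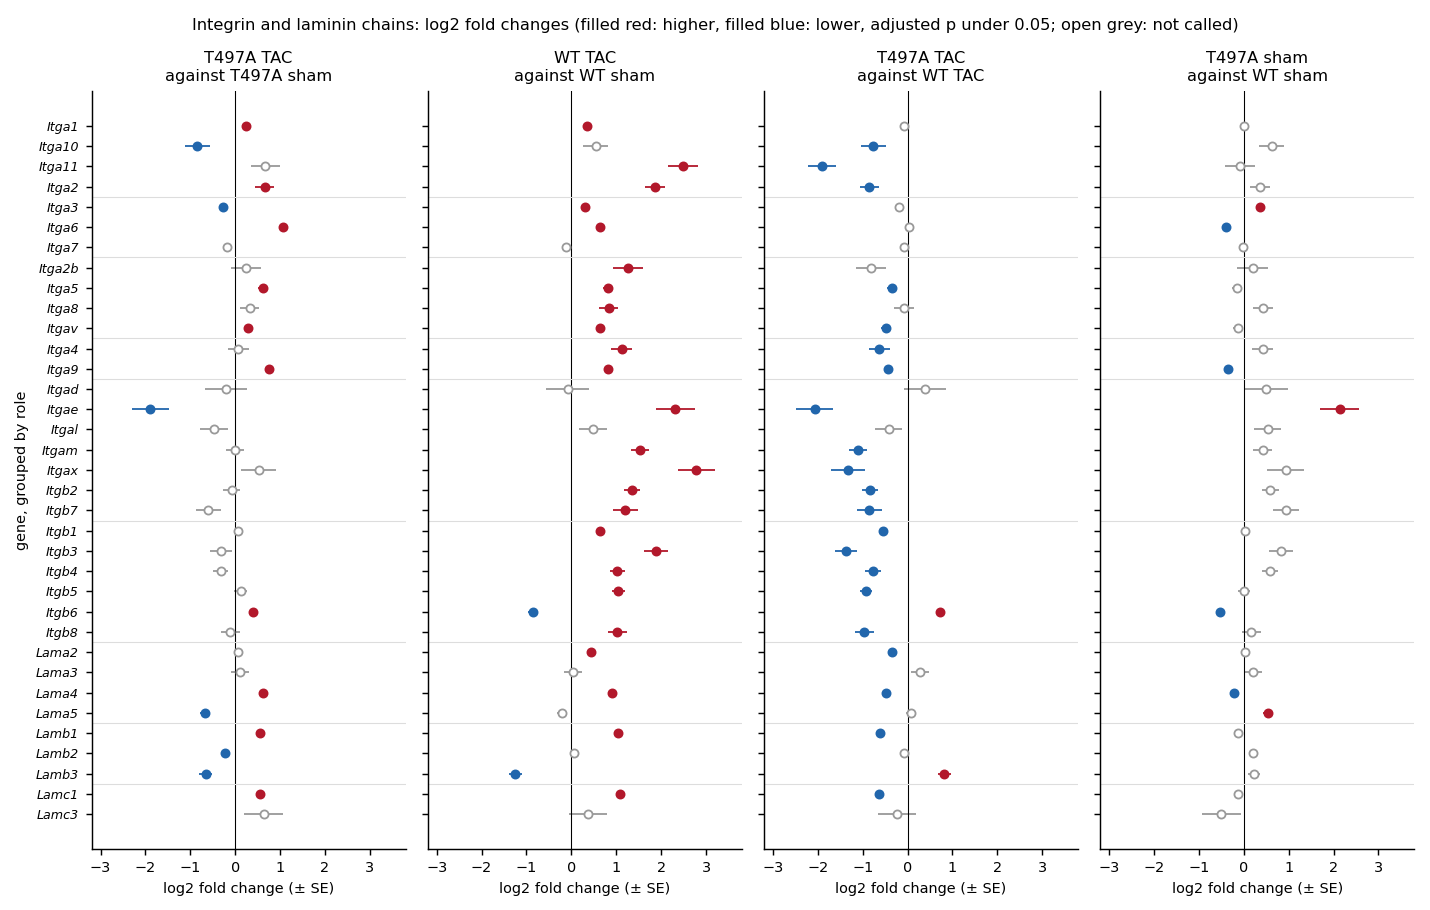
Log2 fold changes with standard errors (x axis) of 35 chains (y axis, grouped by role) in 4 comparisons of 3 libraries a group. Red and blue filled points are called higher and lower, open grey points are not called. Lama1 is left out because 9 of the 12 libraries held at most 4 reads of it. In WT TAC against WT sham 25 of the points shown are red and 2 blue, and in T497A TAC against WT TAC 21 are blue and 2 red.

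Among the laminin alpha chains, Lama4 rose after TAC in both genotypes and Lama5 in neither. Lama4 is the alpha chain of capillary basement membranes that also occurs around cardiac myocytes. It had 152, 166 and 165 CPM in T497A TAC, 226, 235 and 218 CPM in WT TAC, 98.0, 107 and 107 CPM in T497A sham, and 120.5, 117 and 127 CPM in WT sham. The 4 groups do not overlap, and WT TAC is the highest and T497A sham the lowest. Its log2 fold change with TAC was 0.63 ± 0.06 (SE) in T497A and 0.90 ± 0.06 in WT (edgeR adjusted p 7.71e-06 and 5.92e-08), and the log2 fold change of T497A TAC against WT TAC was -0.49 ± 0.06 (adjusted p 2.73e-05). Against WT sham, T497A TAC was higher by 0.41 ± 0.06 (edgeR adjusted p 0.00132). Between the sham groups the difference was -0.22 ± 0.06 (edgeR adjusted p 0.0433). It was lost without WT sham 1, WT sham 2, WT sham 3, T497A sham 1, T497A sham 2, T497A sham 3, WT TAC 1, T497A TAC 2 or T497A TAC 3 (log2 fold changes -0.25 to -0.18, adjusted p 0.0546 to 0.166) and when libraries were scaled by totals alone (adjusted p 0.133) or not filtered (0.0577). Lama2 is the alpha chain of the muscle basement membrane whose loss causes muscular dystrophy in mice. It had 210.4, 206 and 188 CPM in T497A TAC, 259, 258 and 257 CPM in WT TAC, 183, 210.2 and 188 CPM in T497A sham, and 194, 186 and 195 CPM in WT sham. Only the WT TAC libraries stand clear of the rest. The T497A response was 0.06 ± 0.06 on the log2 scale (edgeR adjusted p 0.560), that in WT was 0.43 ± 0.06 (adjusted p 4.59e-05), and the 2 responses differed by -0.37 ± 0.09 (adjusted p 0.00534). Lama5 is the other alpha chain of vessel walls. It had 172, 144 and 130.1 CPM in T497A TAC, 138, 159 and 127 CPM in WT TAC, 258, 210.3 and 244 CPM in T497A sham, and 165, 163 and 162 CPM in WT sham. T497A sham was above all other groups, which overlap each other in part. Lama5 was lower in T497A TAC than in T497A sham (-0.68 ± 0.11, edgeR adjusted p 0.000518) and higher in T497A sham than in WT sham (0.54 ± 0.11, adjusted p 0.00913). T497A TAC set against WT sham was -0.14 ± 0.11 apart (adjusted p 0.468), so the call depends on which sham group is used.

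Lama1, the alpha chain of embryonic basement membranes, was chosen for mention after its values were seen. It had 0, 2 and 2 reads in the T497A TAC libraries, 18, 50 and 34 in WT TAC, 0, 2 and 0 in T497A sham, and 4, 0 and 0 in WT sham. It passed the filter through the WT TAC group alone, so its call in that group is a description. Lama3, at 3.01 to 4.92 CPM over the 12 libraries, passed the test in none of the 7 comparisons.

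Lamb1 and Lamc1 moved as a pair, and Lamb2, the most abundant beta chain, did not move with them. Lamb1 is the laminin beta 1 chain. It had 184, 194 and 199 CPM in T497A TAC, 291, 308 and 286 CPM in WT TAC, 131, 139 and 120.2 CPM in T497A sham, and 148, 141 and 141 CPM in WT sham. Lamc1 is the gamma 1 chain shared by most laminins. It had 367, 407 and 391 CPM in T497A TAC, 607, 612 and 604 CPM in WT TAC, 252, 289 and 249 CPM in T497A sham, and 291, 276 and 291 CPM in WT sham. For both, WT TAC is highest, T497A TAC second, and the sham groups lie close together below. In T497A the log2 fold change with TAC was 0.56 ± 0.06 for Lamb1 and 0.56 ± 0.07 for Lamc1 (edgeR adjusted p 2.37e-05 and 4.35e-05). The response in WT was 1.04 ± 0.06 and 1.09 ± 0.07 (edgeR adjusted p 2.43e-08 and 3.03e-08). The responses differed by -0.48 ± 0.09 and -0.53 ± 0.09 (T497A minus WT, edgeR adjusted p 0.00102 and 0.000826). With WT sham as the comparison T497A TAC was also higher, by 0.42 ± 0.06 and 0.44 ± 0.07 (edgeR adjusted p 0.00125 and 0.00139). Lamb2 is the beta 2 chain of muscle and of synaptic and vascular basement membranes. It had 455, 406 and 389 CPM in T497A TAC, 432, 461 and 423 CPM in WT TAC, 471, 496 and 488 CPM in T497A sham, and 397, 421 and 452 CPM in WT sham. T497A sham was above T497A TAC (-0.22 ± 0.07, edgeR adjusted p 0.0350), and the WT groups overlap. That call was lost without WT sham 2, T497A sham 1, T497A sham 2, T497A sham 3, WT TAC 1, T497A TAC 2 or T497A TAC 3 (log2 fold changes -0.24 to -0.17, adjusted p 0.0501 to 0.145) and with totals alone. Against WT sham, T497A TAC differed by -0.02 ± 0.07 (edgeR adjusted p 0.887). The interval of 2 SE around the WT difference of 0.05 ± 0.07 covers 0.

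Lamb3 was lower in each TAC group than in the sham group of the same label. Lamb3 is the beta chain of the laminin that anchors the epidermis. It had 15.5, 13.4 and 14.5 CPM in T497A TAC, 8.55, 6.72 and 9.39 CPM in WT TAC, 22.3, 26.9 and 19.2 CPM in T497A sham, and 19.1, 17.4 and 22.1 CPM in WT sham. Its log2 fold changes with TAC were -0.66 ± 0.14 in T497A and -1.25 ± 0.14 in WT (edgeR adjusted p 0.00370 and 6.86e-06), and higher in T497A TAC than in WT TAC (log2 fold change 0.81 ± 0.14, adjusted p 0.000529). Against WT sham, T497A TAC was -0.43 ± 0.14 apart, which was not called (edgeR adjusted p 0.0656), so the call in T497A depends on which sham group is used. The difference between the responses, 0.59 ± 0.20 (edgeR adjusted p 0.0381), was lost without WT sham 1, WT sham 3, T497A sham 1, T497A sham 3, WT TAC 1, WT TAC 2, T497A TAC 1 or T497A TAC 3 (log2 fold changes 0.46 to 0.62, adjusted p 0.0573 to 0.0981) and with totals alone. Lamc3, at 0.427 to 1.84 CPM, was called in no comparison.

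**Figure D2:**
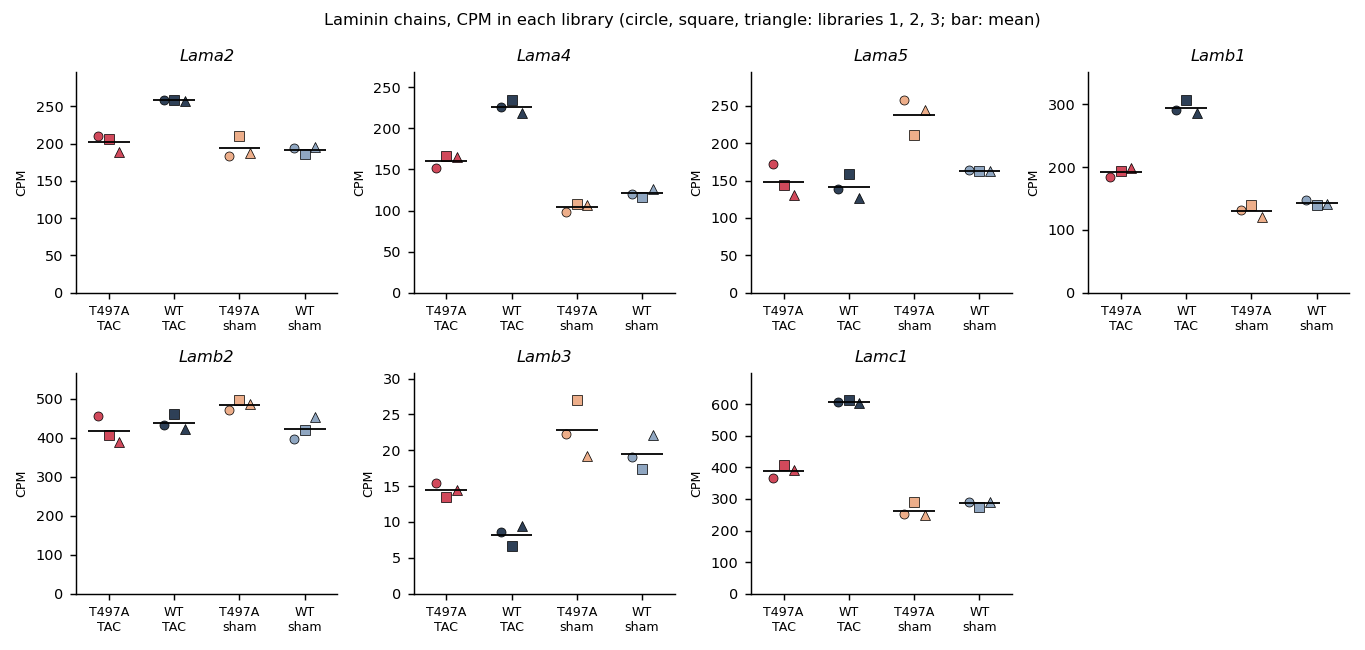
CPM (y axis, from 0) of 7 laminin chains in each library of the 4 groups (x axis), with the mean of 3 libraries as a bar. Lamb1, Lamc1 and Lama4 are highest in WT TAC (286 to 308, 604 to 612 and 218 to 235 CPM), with T497A TAC between WT TAC and both sham groups, while Lamb2 stays between 389 and 496 CPM in every library.

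Ratios of read counts within a library do not depend on the scaling between libraries. The ratio of Lamb1 to Lamb2 was 0.405, 0.478 and 0.510 in T497A TAC, 0.673, 0.668 and 0.677 in WT TAC, 0.278, 0.281 and 0.247 in T497A sham, and 0.373, 0.334 and 0.313 in WT sham. These groups do not overlap: the ratio was highest in WT TAC, then T497A TAC, then WT sham and lowest in T497A sham. Lama4 to Lama5 ran in the same order, at 0.884, 1.15 and 1.26 in T497A TAC, 1.63, 1.47 and 1.72 in WT TAC, 0.379, 0.511 and 0.438 in T497A sham, and 0.731, 0.716 and 0.782 in WT sham. Lama4 to Lama2 was 0.721, 0.809 and 0.873 in T497A TAC, 0.871, 0.910 and 0.849 in WT TAC, 0.534, 0.511 and 0.569 in T497A sham, and 0.623, 0.629 and 0.649 in WT sham, where the TAC groups overlap and both stand above the sham groups. Lamb1 to Lamc1, in contrast, was 0.496 ± 0.0164 in T497A TAC, 0.486 ± 0.0155 in WT TAC, 0.495 ± 0.0213 in T497A sham and 0.501 ± 0.0128 in WT sham (SD, n = 3 each), and all 4 groups overlap. An exact permutation test of 3 against 3 cannot fall below 0.1, so these ratios are given without one.

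**Figure D3:**
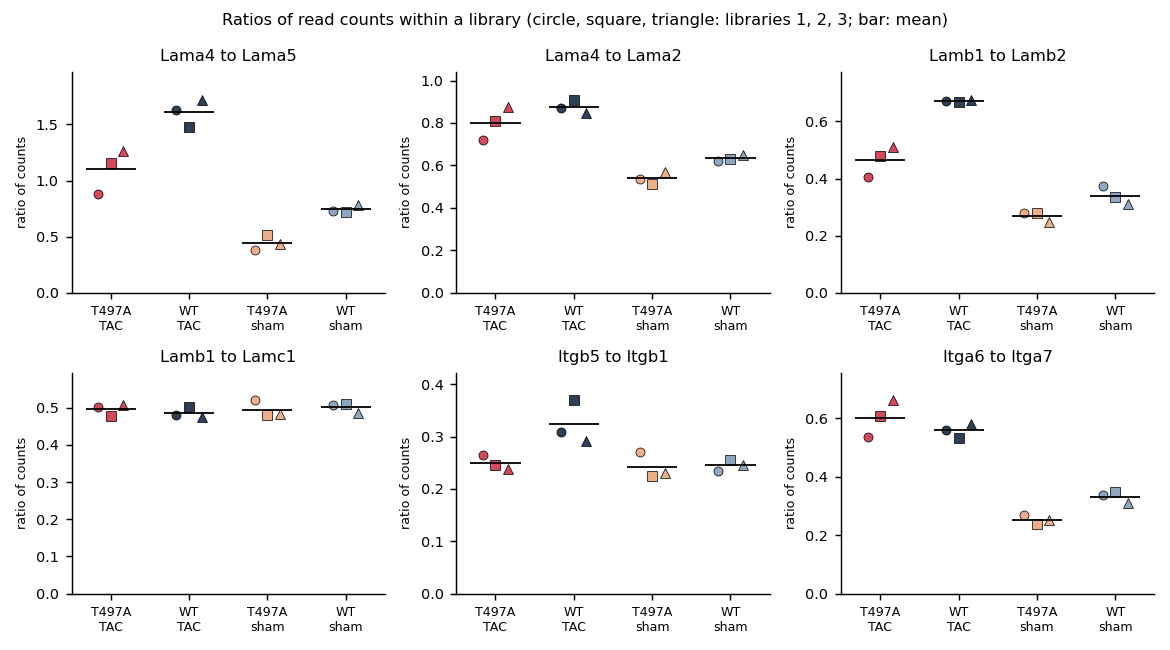
Ratios of read counts (y axis, from 0) of 6 pairs of chains within each library of the 4 groups (x axis), with group means as bars. Lamb1 to Lamb2 and Lama4 to Lama5 separate all 4 groups, Lamb1 to Lamc1 lies between 0.474 and 0.519 in all 12 libraries, and Itga6 to Itga7 separates TAC from sham.

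Of the 3 laminin-binding integrin alpha chains, Itga6 rose after TAC in both genotypes and the muscle chain Itga7 was not called in any comparison. Itga6 binds laminin together with beta 1 or beta 4 and is strong on endothelium. It had 110.2, 121 and 129 CPM in T497A TAC, 113, 129 and 112 CPM in WT TAC, 57.2, 55.9 and 59.0 CPM in T497A sham, and 77.2, 78.4 and 72.3 CPM in WT sham. The TAC groups overlap each other and lie above both sham groups. Its log2 fold change was 1.07 ± 0.07 in T497A and 0.64 ± 0.07 in WT (edgeR adjusted p 3.77e-07 and 3.78e-06), and against WT sham T497A TAC was higher by 0.66 ± 0.07 (adjusted p 0.000157). It was lower in T497A sham than in WT sham (log2 fold change -0.41 ± 0.07, edgeR adjusted p 0.00351), and the responses differed by 0.43 ± 0.10 (adjusted p 0.00482), a call lost with totals alone (0.12, adjusted p 0.395). T497A TAC minus WT TAC was 0.02 ± 0.07 (edgeR adjusted p 0.837) and turned to -0.23 (adjusted p 0.0236) with totals alone. Endothelial markers (12 genes) summed to 1319.5 to 1485 CPM in T497A TAC, 1295 to 1551 CPM in WT TAC, 1134 to 1208 CPM in T497A sham, and 1213 to 1265 CPM in WT sham. The part of endothelial markers in the Itga6 difference was not tested. Itga7, named after its values were seen because it is the main muscle laminin receptor, had 206, 199 and 195 CPM in T497A TAC, 202, 242 and 193 CPM in WT TAC, 212, 234 and 235 CPM in T497A sham, and 229.6, 226 and 233 CPM in WT sham. T497A TAC, at 195 to 206 CPM, lies below both sham groups without overlap. Against each sham group its edgeR p was under 0.05 before adjustment, but neither difference was called. WT TAC spans the WT sham values, and the log2 fold change in WT of -0.11 ± 0.08 (edgeR adjusted p 0.232) became 0.22 (adjusted p 0.039) with totals alone. The ratio of Itga6 to Itga7 was 0.535, 0.609 and 0.661 in T497A TAC, 0.560, 0.533 and 0.582 in WT TAC, 0.270, 0.239 and 0.251 in T497A sham, and 0.336, 0.346 and 0.310 in WT sham, with no overlap between either TAC group and either sham group. Itga3 is a laminin receptor chain best known from epithelia. It had 17.6, 16.9 and 15.5 CPM in T497A TAC, 18.8, 18.8 and 19.9 CPM in WT TAC, 18.7, 21.8 and 19.6 CPM in T497A sham, and 14.0, 15.6 and 17.3 CPM in WT sham. It was lower in T497A TAC than in T497A sham (-0.26 ± 0.09, edgeR adjusted p 0.0437), higher in WT TAC than in WT sham (0.29 ± 0.09, adjusted p 0.0130) and higher in T497A sham than in WT sham (0.36 ± 0.09, adjusted p 0.0304). T497A TAC set against WT sham was 0.09 ± 0.09 apart (edgeR adjusted p 0.576), so the sign turns with the sham group used. These 3 calls are weak. The first was lost without WT sham 2, T497A sham 2, T497A sham 3, WT TAC 1, WT TAC 3, T497A TAC 2 or T497A TAC 3 (log2 fold changes -0.28 to -0.20, adjusted p 0.0502 to 0.168), and also with totals alone (adjusted p 0.0901), with no filter (0.0522) and with only the 2 groups compared (0.0561). The call in WT was lost without WT sham 1 (log2 fold change 0.22, adjusted p 0.0763), and that between the sham groups without WT sham 1, WT sham 2, T497A sham 2, T497A sham 3 or WT TAC 1 (log2 fold changes 0.28 to 0.37, adjusted p 0.0502 to 0.136).

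All 4 collagen receptor chains but Itga10 rose after TAC in WT, and Itga11 moved most. Itga11 is the fibrillar collagen receptor of fibroblasts. It had 6.09, 6.91 and 5.75 CPM in T497A TAC, 19.1, 36.9 and 14.0 CPM in WT TAC, 4.08, 3.46 and 4.24 CPM in T497A sham, and 3.92, 5.26 and 3.33 CPM in WT sham. All WT TAC libraries lie above all others, and WT TAC 2 is well above its group. Its log2 fold change was 0.67 ± 0.32 in T497A (edgeR adjusted p 0.163) and 2.49 ± 0.33 in WT (adjusted p 9.79e-05). T497A TAC minus WT TAC was -1.90 ± 0.31 (edgeR adjusted p 0.000937), and the responses differed by -1.82 ± 0.45 (adjusted p 0.0126). Fibroblast markers, whose sums are given above, were called 6 higher and 1 lower of 12 in T497A TAC against T497A sham, 11 higher and 1 lower in WT TAC against WT sham and 1 higher and 11 lower in T497A TAC against WT TAC, and their part in the Itga11 difference was not tested. Itga2 is the collagen receptor chain of platelets and epithelia. It had 1.70, 2.00 and 1.56 CPM in T497A TAC, 3.38, 3.67 and 2.45 CPM in WT TAC, 1.21, 1.07 and 1.07 CPM in T497A sham, and 0.785, 1.01 and 0.811 CPM in WT sham. WT TAC was highest and T497A TAC next, with no overlap. Its response was 0.65 ± 0.21 in T497A (edgeR adjusted p 0.0381) and 1.87 ± 0.22 in WT (adjusted p 6.84e-06). The call in T497A was lost without T497A sham 1, T497A sham 2, T497A sham 3, WT TAC 1, T497A TAC 1 or T497A TAC 2 (log2 fold changes 0.55 to 0.72, adjusted p 0.0568 to 0.145), with no filter (adjusted p 0.0852) and with only the 2 groups compared (0.0574). With WT sham as the comparison T497A TAC was higher by 1.01 ± 0.22 (edgeR adjusted p 0.0108), lost without WT sham 1 or T497A TAC 2 (log2 fold changes 0.91 to 0.95, adjusted p 0.0535 to 0.0591). Platelet markers (8 genes, of which 3 passed the filter) summed to 12.6 to 15.3 CPM in T497A TAC, 10.1 to 11.5 CPM in WT TAC, 8.79 to 11.2 CPM in T497A sham, and 11.2 to 13.7 CPM in WT sham. Their part in the Itga2 difference was not tested. Itga1 is the collagen IV receptor chain of vessel muscle and mesenchymal cells. It had 100.5, 106 and 108 CPM in T497A TAC, 114, 104 and 116 CPM in WT TAC, 98.4, 84.2 and 84.5 CPM in T497A sham, and 83.8, 94.2 and 86.6 CPM in WT sham. The differences were small, 0.24 ± 0.07 in T497A and 0.34 ± 0.07 in WT (edgeR adjusted p 0.0287 and 0.00127). The call in T497A was lost without T497A sham 2, T497A sham 3, T497A TAC 2 or T497A TAC 3 (log2 fold changes 0.20 to 0.23, adjusted p 0.0854 to 0.111). Against WT sham, T497A TAC was higher by 0.25 ± 0.07 (edgeR adjusted p 0.0431), lost without WT sham 1, WT sham 2, WT sham 3, WT TAC 1, T497A TAC 1, T497A TAC 2 or T497A TAC 3 (log2 fold changes 0.21 to 0.30, adjusted p 0.05 to 0.165) and with DESeq2 size factors (0.0515). Itga10 is a chain of cartilage and skeletal tissue. It had 0.941, 1.32 and 0.916 CPM in T497A TAC, 1.62, 2.07 and 1.70 CPM in WT TAC, 1.85, 1.26 and 2.61 CPM in T497A sham, and 1.23, 1.47 and 1.01 CPM in WT sham. It was lower in T497A TAC than in T497A sham (log2 fold change -0.85 ± 0.28, edgeR adjusted p 0.0381) and than in WT TAC (-0.76 ± 0.28, adjusted p 0.0433). The first call was lost without WT sham 1, T497A sham 1, T497A sham 3, WT TAC 1, T497A TAC 1 or T497A TAC 3 (log2 fold changes -0.87 to -0.55, adjusted p 0.0503 to 0.200), the value being -0.55 without T497A sham 3. It was also lost with limma-voom (adjusted p 0.0734), totals alone (0.0517) and only the 2 groups compared (0.0708), and against WT sham T497A TAC was -0.22 ± 0.28 apart (edgeR adjusted p 0.688). The second was lost without WT sham 1, WT sham 2, T497A sham 1, WT TAC 1, WT TAC 2, WT TAC 3, T497A TAC 1 or T497A TAC 3 (log2 fold changes -0.83 to -0.65, adjusted p 0.0502 to 0.134) and with limma-voom (0.0765). Exons of Itga1 and Itga10 share 685 and 1739 bases with the genes Gm49395 and Gm42957 on the same strand, so some of their reads may belong there.

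The receptors of fibronectin and related ligands that carry the RGD motif were called higher after TAC in 2 of 4 chains in T497A (12.9% of all genes were) and in 4 of 4 in WT (25.9% of all genes), counts that were not tested against each other. Itga5 is the fibronectin receptor chain. It had 74.7, 86.7 and 95.9 CPM in T497A TAC, 105, 126 and 98.5 CPM in WT TAC, 50.2, 58.8 and 58.9 CPM in T497A sham, and 66.0, 55.7 and 65.3 CPM in WT sham. TAC libraries lie above sham libraries in both genotypes (0.62 ± 0.11 in T497A and 0.82 ± 0.11 in WT, edgeR adjusted p 0.00151 and 4.24e-05). The log2 fold change of T497A TAC against WT TAC was -0.36 ± 0.11 (edgeR adjusted p 0.0228). That call was lost without WT TAC 2, T497A TAC 1 or T497A TAC 2 (log2 fold changes -0.34 to -0.25, adjusted p 0.0684 to 0.104). The difference between the responses was not called (edgeR adjusted p 0.374). T497A TAC set against WT sham was higher by 0.46 ± 0.11 (edgeR adjusted p 0.0208), lost without WT sham 2, WT sham 3, T497A TAC 2 or T497A TAC 3 (log2 fold changes 0.37 to 0.50, adjusted p 0.05 to 0.0824). Itgav is the vitronectin receptor chain that also activates latent TGF beta. It had 43.5, 44.5 and 37.2 CPM in T497A TAC, 53.7, 68.6 and 53.2 CPM in WT TAC, 32.9, 34.2 and 35.3 CPM in T497A sham, and 39.2, 37.8 and 35.7 CPM in WT sham. Its response was 0.29 ± 0.10 in T497A (edgeR adjusted p 0.0392) and 0.64 ± 0.10 in WT (adjusted p 6.19e-05). The T497A call was lost without WT sham 2, T497A sham 1, T497A sham 2, T497A sham 3, T497A TAC 1 or T497A TAC 2 (log2 fold changes 0.24 to 0.32, adjusted p 0.0526 to 0.150), and against WT sham T497A TAC was 0.15 ± 0.10 apart (edgeR adjusted p 0.353). T497A TAC minus WT TAC was -0.49 ± 0.09 (edgeR adjusted p 0.00109). Itga8 is a chain of smooth muscle and other contractile mesenchymal cells. It had 15.7, 13.2 and 9.93 CPM in T497A TAC, 13.7, 13.1 and 14.2 CPM in WT TAC, 7.84, 9.35 and 13.9 CPM in T497A sham, and 9.30, 7.67 and 6.15 CPM in WT sham. The TAC groups overlap, and T497A sham overlaps both. Of the 7 comparisons it was called in WT TAC against WT sham alone (0.83 ± 0.22, edgeR adjusted p 0.00758). Itga2b is the fibrinogen receptor chain of platelets. It had 1.20, 0.846 and 1.37 CPM in T497A TAC, 2.29, 1.82 and 1.90 CPM in WT TAC, 0.751, 0.548 and 1.60 CPM in T497A sham, and 0.768, 0.881 and 0.862 CPM in WT sham, and it was higher in WT TAC than in WT sham (log2 fold change 1.26 ± 0.34, edgeR adjusted p 0.00602). The summed platelet markers given above were at 10.1 to 11.5 CPM in WT TAC and 11.2 to 13.7 CPM in WT sham, and their part in the Itga2b difference was not tested.

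Itga9 and Itga4 form a pair of related chains that bind fibronectin, tenascin and vascular adhesion molecules. Itga9 had 125, 129.8 and 131 CPM in T497A TAC, 172, 175 and 172 CPM in WT TAC, 64.7, 81.3 and 83.9 CPM in T497A sham, and 102, 94.8 and 95.7 CPM in WT sham. Its libraries fall in 4 separate ranges, WT TAC highest and T497A sham lowest. The response was 0.75 ± 0.08 in T497A and 0.83 ± 0.08 in WT (edgeR adjusted p 1.88e-05 and 1.18e-06), and T497A TAC minus WT TAC was -0.43 ± 0.08 (adjusted p 0.000697). With WT sham as the comparison T497A TAC was higher by 0.40 ± 0.08 (edgeR adjusted p 0.00708). T497A sham minus WT sham was -0.35 ± 0.08 (edgeR adjusted p 0.0180). That call was lost without WT sham 1 or WT sham 3 (log2 fold changes -0.36 to -0.31, adjusted p 0.0524 to 0.0854). The difference between the responses was -0.08 ± 0.11 (adjusted p 0.636). Itga4 is the chain with which leukocytes leave vessels. It had 5.12, 5.59 and 4.56 CPM in T497A TAC, 6.99, 10.2 and 6.38 CPM in WT TAC, 6.74, 3.99 and 3.81 CPM in T497A sham, and 3.26, 3.27 and 4.36 CPM in WT sham. It was higher in WT TAC than in WT sham (1.12 ± 0.23, edgeR adjusted p 0.00114), while T497A TAC and T497A sham overlap. The log2 fold change of T497A TAC against WT TAC was -0.63 ± 0.23 (edgeR adjusted p 0.0451). This call was lost without WT sham 1, WT sham 2, WT TAC 1, WT TAC 2, T497A TAC 1, T497A TAC 2 or T497A TAC 3 (log2 fold changes -0.71 to -0.39, adjusted p 0.0557 to 0.206), the value being -0.39 without WT TAC 2, and with no filter (0.0549). The difference of the responses, -1.05 ± 0.33 (adjusted p 0.0276), was lost without WT sham 1, WT sham 2, T497A sham 1, WT TAC 2, T497A TAC 1 or T497A TAC 3 (log2 fold changes -1.05 to -0.73, adjusted p 0.0525 to 0.0684). Its exons overlap 1124 bases of Cerkl on the other strand.

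The common partner chain Itgb1 was not called after TAC in T497A and rose in WT. Itgb1 had 559, 589.6 and 539 CPM in T497A TAC, 789, 929 and 744 CPM in WT TAC, 521, 552 and 533 CPM in T497A sham, and 535, 531 and 519 CPM in WT sham. The 3 WT TAC libraries lie above the other 9, which run together between 519 and 589.6 CPM. Its log2 fold change was 0.07 ± 0.08 in T497A (edgeR adjusted p 0.536) and 0.64 ± 0.08 in WT (adjusted p 7.99e-06), and the responses differed by -0.56 ± 0.11 (adjusted p 0.00134). Itgb5 is the vitronectin receptor partner of alpha v. It had 148, 145 and 128 CPM in T497A TAC, 244, 343 and 217 CPM in WT TAC, 141, 124 and 123 CPM in T497A sham, and 126, 135 and 128 CPM in WT sham. Again only WT TAC stood apart, with WT TAC 2 the highest (0.12 ± 0.14 in T497A and 1.05 ± 0.14 in WT, edgeR adjusted p 0.574 and 5.97e-05). The difference of the responses was -0.93 ± 0.19 (edgeR adjusted p 0.00414). The ratio of Itgb5 to Itgb1 was 0.265, 0.246 and 0.238 in T497A TAC, 0.309, 0.369 and 0.291 in WT TAC, 0.270, 0.225 and 0.230 in T497A sham, and 0.235, 0.255 and 0.246 in WT sham, so WT TAC was above the other groups here as well, and the other 3 groups overlap.

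Of the less abundant beta chains, Itgb6 was the one that fell in WT. Itgb6 is the partner of alpha v in epithelia that activates TGF beta. It had 18.1, 16.5 and 17.1 CPM in T497A TAC, 10.1, 10.3 and 10.7 CPM in WT TAC, 10.6, 14.0 and 14.4 CPM in T497A sham, and 17.1, 19.2 and 19.9 CPM in WT sham. WT TAC and WT sham do not overlap, and T497A TAC overlaps WT sham. It was higher in T497A TAC than in T497A sham (log2 fold change 0.41 ± 0.11, edgeR adjusted p 0.0126), lower in WT TAC than in WT sham (-0.85 ± 0.11, adjusted p 1.26e-05) and higher in T497A TAC than in WT TAC (0.73 ± 0.11, adjusted p 0.000115). Against WT sham, T497A TAC was -0.12 ± 0.11 apart (edgeR adjusted p 0.538), so the sign in T497A turns with the sham group used. It was lower in T497A sham than in WT sham (log2 fold change -0.52 ± 0.11, edgeR adjusted p 0.00987). That call was lost without WT sham 3 (log2 fold change -0.48, adjusted p 0.0512). Mesothelial and epicardial markers (8 genes) summed to 10.1 to 12.4 CPM in T497A TAC, 4.92 to 6.86 CPM in WT TAC, 7.46 to 14.0 CPM in T497A sham, and 4.59 to 14.9 CPM in WT sham. They were called 1 higher and 0 lower in T497A TAC against T497A sham, 1 higher and 4 lower in WT TAC against WT sham and 3 higher and 0 lower in T497A TAC against WT TAC, with medians of -0.68, -1.90 and 1.25. Their part in the Itgb6 and Lamb3 differences was not tested. Itgb3 is the platelet and endothelial beta chain. It had 2.73, 3.91 and 3.16 CPM in T497A TAC, 7.22, 11.0 and 7.13 CPM in WT TAC, 3.53, 3.31 and 5.36 CPM in T497A sham, and 1.98, 3.10 and 1.79 CPM in WT sham. Itgb8 is a partner of alpha v that binds latent TGF beta. It had 4.31, 3.09 and 3.68 CPM in T497A TAC, 6.49, 8.67 and 6.47 CPM in WT TAC, 5.36, 2.86 and 3.76 CPM in T497A sham, and 3.96, 3.34 and 3.35 CPM in WT sham. Itgb4 is the partner of alpha 6 in epithelial anchoring junctions. It had 3.75, 3.58 and 2.90 CPM in T497A TAC, 5.49, 6.78 and 5.16 CPM in WT TAC, 3.89, 3.64 and 5.31 CPM in T497A sham, and 2.87, 2.94 and 2.77 CPM in WT sham. In each of these 3 chains WT TAC lay above WT sham and above T497A TAC without overlap. Their responses in T497A were -0.31 ± 0.25, -0.11 ± 0.21 and -0.33 ± 0.17 for Itgb3, Itgb8 and Itgb4 (edgeR adjusted p 0.407, 0.752 and 0.192). In WT they were 1.89 ± 0.26, 1.02 ± 0.21 and 1.02 ± 0.17 (edgeR adjusted p 3.75e-05, 0.000934 and 0.000184), and all 3 differences between the responses were called. Mean levels in T497A TAC were 3.27, 3.69 and 3.41 CPM for Itgb3, Itgb8 and Itgb4. These lay below T497A sham (4.06, 3.99 and 4.28 CPM) and above WT sham (2.29, 3.55 and 2.86 CPM). The sign of the difference in means in T497A thus turns with the sham group used, and no chain was called against either. The exons of Itgb4 overlap 537 bases of B230344G16Rik on the other strand.

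**Figure D4:**
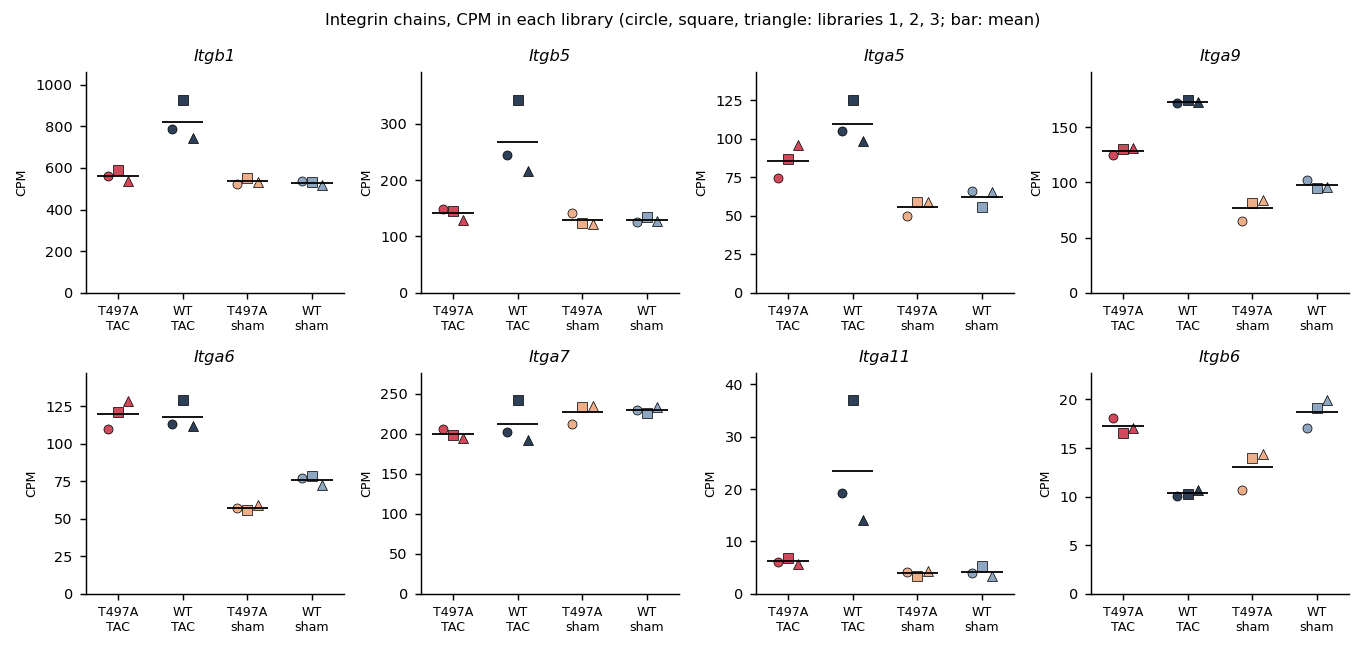
CPM (y axis, from 0) of 8 integrin chains in each library of the 4 groups (x axis), with means as bars. For Itgb1, Itgb5 and Itga11 the 3 WT TAC libraries lie above the other 9, for Itga6 both TAC groups lie above both sham groups, for Itga7 the 12 libraries run from 193 to 242 CPM, and for Itgb6 WT TAC is the lowest group.

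Of the 7 leukocyte integrin chains 5 were higher in WT TAC than in WT sham (25.9% of all genes were) and 5 were lower in T497A TAC than in WT TAC (17.9% of all genes), while Itgal and Itgad were called in neither. Itgb2 is the beta chain shared by leukocyte receptors. It had 8.88, 9.19 and 8.70 CPM in T497A TAC, 14.2, 21.2 and 12.4 CPM in WT TAC, 11.1, 7.68 and 9.49 CPM in T497A sham, and 5.25, 6.92 and 6.56 CPM in WT sham. Itgam with Itgb2 forms the complement receptor of macrophages and neutrophils. It had 2.31, 2.80 and 2.76 CPM in T497A TAC, 5.05, 7.40 and 4.58 CPM in WT TAC, 2.61, 2.33 and 2.98 CPM in T497A sham, and 2.20, 2.15 and 1.56 CPM in WT sham. Itgax with Itgb2 marks dendritic cells and some macrophages. It had 2.14, 1.78 and 1.29 CPM in T497A TAC, 3.92, 6.82 and 2.36 CPM in WT TAC, 1.29, 1.04 and 1.30 CPM in T497A sham, and 0.307, 0.679 and 0.913 CPM in WT sham. In all 3, WT TAC lay above both T497A TAC and WT sham without overlap. None of the 3 was called in T497A TAC against T497A sham (-0.08 ± 0.19, -0.01 ± 0.21 and 0.52 ± 0.39 for Itgb2, Itgam and Itgax, edgeR adjusted p 0.810, 0.982 and 0.371). The WT responses were 1.35 ± 0.19 for Itgb2, 1.53 ± 0.21 for Itgam and 2.78 ± 0.42 for Itgax (edgeR adjusted p 5.25e-05, 2.73e-05 and 9.27e-05). T497A TAC minus WT TAC was -0.83 ± 0.19, -1.11 ± 0.20 and -1.33 ± 0.38 (edgeR adjusted p 0.00328, 0.000682 and 0.0151), and for Itgax this call was lost without WT TAC 2 or T497A TAC 3 (log2 fold changes -1.15 to -0.85, adjusted p 0.0651 to 0.0762), the value being -0.85 without WT TAC 2. Against WT sham, Itgax in T497A TAC was higher by 1.45 ± 0.42 (edgeR adjusted p 0.0431), lost without WT sham 1, WT sham 2, T497A sham 1, T497A sham 2, T497A sham 3, WT TAC 1, T497A TAC 1, T497A TAC 2 or T497A TAC 3 (log2 fold changes 1.12 to 1.63, adjusted p 0.0534 to 0.140), with no filter (0.0764) and without the T497A sham group (0.0740). Itgb7 is the homing receptor chain of lymphocytes of the gut. It had 1.21, 1.02 and 1.00 CPM in T497A TAC, 1.82, 2.35 and 1.69 CPM in WT TAC, 2.35, 1.13 and 1.41 CPM in T497A sham, and 1.02, 0.770 and 0.744 CPM in WT sham. It was higher in WT TAC than in WT sham (log2 fold change 1.20 ± 0.28, edgeR adjusted p 0.00247) and lower in T497A TAC than in WT TAC (log2 fold change -0.86 ± 0.28, adjusted p 0.0256). The second call was lost without WT TAC 2, T497A TAC 2 or T497A TAC 3 (log2 fold changes -0.80 to -0.70, adjusted p 0.0769 to 0.0978). The 16 leukocyte and macrophage markers were called 5 higher and 1 lower in T497A TAC against T497A sham, 15 higher and 1 lower in WT TAC against WT sham and 0 higher and 15 lower in T497A TAC against WT TAC. The ratio of Itgb2 to Ptprc, the CD45 gene of all leukocytes, was 0.557, 0.681 and 0.752 in T497A TAC, 0.632, 0.613 and 0.727 in WT TAC, 0.950, 0.955 and 0.964 in T497A sham, and 0.638, 0.689 and 0.522 in WT sham. T497A sham thus stood above the other 3 groups, which overlap each other. Itgam shares 3450 bases of exon with Gm49368 on the same strand, so its reads are uncertain.

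Itgae, the alpha chain of lymphocytes in epithelia, was mentioned after its values were seen. It had 0.349, 0.231 and 0.186 CPM in T497A TAC, 1.12, 1.01 and 1.10 CPM in WT TAC, 1.62, 0.685 and 0.549 CPM in T497A sham, and 0.256, 0.183 and 0.203 CPM in WT sham. It was high in WT TAC and T497A sham and low in T497A TAC and WT sham, so that its log2 fold change was -1.89 ± 0.42 in T497A and 2.32 ± 0.43 in WT (edgeR adjusted p 0.00466 and 0.000400). T497A TAC set against WT sham was 0.25 ± 0.46 apart (edgeR adjusted p 0.796), so the call in T497A depends on which sham group is used. Between the sham groups it was 2.14 ± 0.43 (edgeR adjusted p 0.00976), a call lost without WT sham 2 (log2 fold change 2.04, adjusted p 0.0504). Between the TAC groups it was -2.07 ± 0.42 (edgeR adjusted p 0.00139). It is the single chain among the 104 autosomal genes that were 4-fold apart between the sham groups. Summed lymphocyte markers (12 genes) were 4.25 to 6.70 CPM in T497A TAC, 5.93 to 8.31 CPM in WT TAC, 4.07 to 6.76 CPM in T497A sham, and 5.12 to 7.24 CPM in WT sham, and the groups overlap. Itgal and Itgad, 2 further leukocyte chains, ran from 1.61 to 4.34 CPM and from 0.120 to 0.349 CPM and were called in no comparison.

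**Figure D5:**
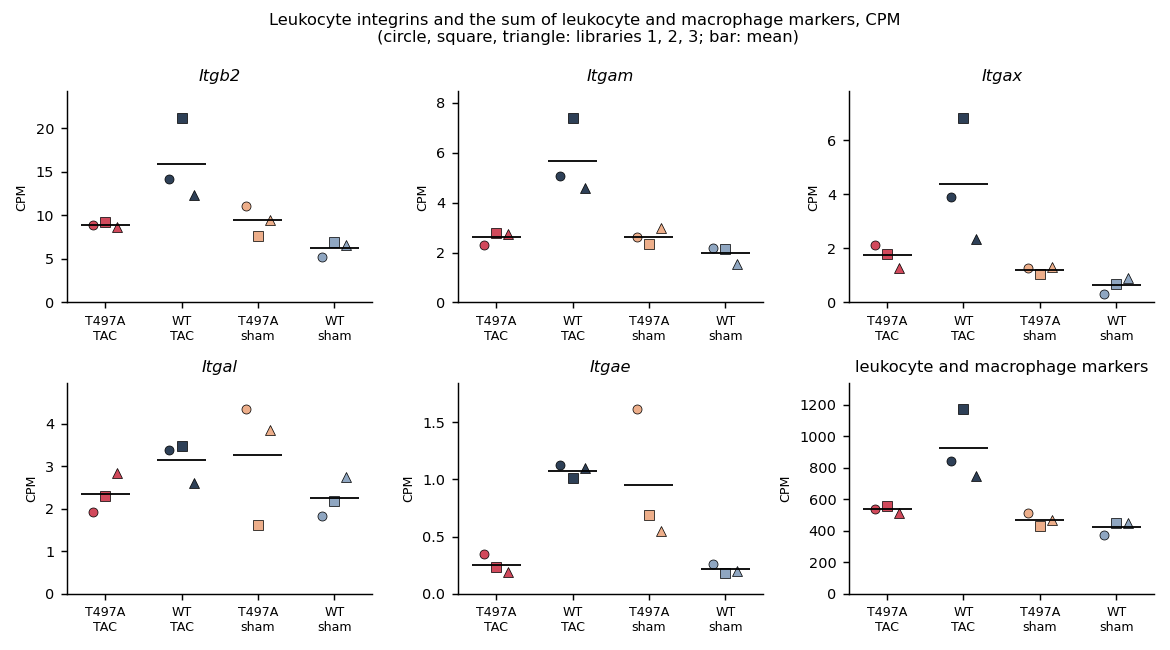
CPM (y axis, from 0) of 5 leukocyte integrin chains and of the sum of 16 leukocyte and macrophage markers in each library of the 4 groups (x axis), with means as bars. Itgb2, Itgam, Itgax and the marker sum are highest in WT TAC, whereas Itgae is high in WT TAC and in T497A sham and at most 0.349 CPM in the other 2 groups.

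Levels of different genes can be set side by side only per length. On the scale of CPM per kilobase of exon in WT sham, Itgb1 was first with 129 ± 2.02, Lamb2 second with 69.6 ± 4.59 and Itgb5 the third with 36.4 ± 1.42, close to Lamc1 with 34.6 ± 1.06 (SD, n = 3). Itga7 was the first of the alpha chains of integrins, with 28.4 ± 0.425. Next came Lamb1 with 14.4 ± 0.412 and Lama5 with 14.3 ± 0.114, which do not differ beyond their spread. With the longest transcript in place of all exons, a choice added after the values were seen, Itgb1 (139) and Lamb2 (75.2) stayed first and second and Itga7 (57.2) was the third. Lamb1 (24.8) then lay above Lama5 (14.3), so their closeness depends on the length used. The order of the laminin alpha chains depends on that choice: Lama5, Lama2 and Lama4 were at 14.3, 11.7 and 10.1 with all exons and at 14.3, 19.9 and 20.1 with the longest transcript.

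The other genes of the pathway were taken from 4 lists. For comparison, 12.9% of all genes tested were called higher and 11.4% lower in T497A TAC against T497A sham. In WT TAC against WT sham these shares were 25.9% and 24%, and in T497A TAC against WT TAC 17.8% and 17.9%. The calls among 25 further basement membrane genes were 16 higher and 2 lower in T497A TAC against T497A sham, 19 higher and 0 lower in WT TAC against WT sham and 0 higher and 14 lower in T497A TAC against WT TAC. Their median log2 fold changes were 0.57, 1.14 and -0.49 against 0.00, 0.03 and -0.02 over all genes. Col4a1, an alpha chain of basement membrane collagen, averaged 1055 CPM in T497A TAC, 2079 CPM in WT TAC, 411 CPM in T497A sham, and 563 CPM in WT sham. It had log2 fold changes of 1.36 ± 0.09 in T497A and 1.89 ± 0.10 in WT (edgeR adjusted p 5.00e-07 and 5.58e-09). Nid1, the nidogen that joins laminin to collagen IV, averaged 294 CPM in T497A TAC, 527 CPM in WT TAC, 198 CPM in T497A sham, and 204 CPM in WT sham. Sparc, a collagen-binding secreted protein, averaged 869 CPM in T497A TAC, 2860.2 CPM in WT TAC, 418 CPM in T497A sham, and 425 CPM in WT sham. Of 28 integrin ligands other than laminins 27 were found. Their calls were 16 higher and 0 lower in T497A, 21 higher and 2 lower in WT and 2 higher and 19 lower between the TAC groups. The medians were 0.85, 2.16 and -1.37. Col1a1, Col1a2, Col3a1 and Postn are in this list and among the fibroblast markers, so the lists are not separate. Their highest libraries held 4170, 4623, 5889 and 2676 CPM, much of the fibroblast sum. Fbn1, the microfibril protein fibrillin, averaged 215 CPM in T497A TAC, 709.8 CPM in WT TAC, 48.6 CPM in T497A sham, and 84.4 CPM in WT sham. It changed by 2.14 ± 0.20 and 3.07 ± 0.21 on the log2 scale in T497A and WT (edgeR adjusted p 5.46e-05 and 1.01e-06). Col6a3, a chain of the collagen that surrounds cells next to the basement membrane, averaged 112 CPM in T497A TAC, 279.8 CPM in WT TAC, 58.8 CPM in T497A sham, and 59.9 CPM in WT sham.

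Calls among the genes on the cell side of the adhesion went in both directions, but not evenly. Over all genes 12.9% were higher and 11.4% lower in T497A, and 25.9% and 24% in WT. Between the TAC groups these shares were 17.8% and 17.9%. Of 38 adaptors, kinases and adhesion site proteins 37 were tested, Fermt1 being at 0 in all libraries. They were called 13 higher and 3 lower in T497A, 24 higher and 7 lower in WT and 6 higher and 19 lower in T497A TAC against WT TAC, with medians of 0.24, 0.51 and -0.22. Tns1, the focal adhesion protein tensin, averaged 1307 CPM in T497A TAC, 875 CPM in WT TAC, 1544 CPM in T497A sham, and 1507 CPM in WT sham. It fell in WT (-0.78 ± 0.07, edgeR adjusted p 4.16e-07). Parva, the parvin that joins integrin-linked kinase to actin, averaged 74.3 CPM in T497A TAC, 98.8 CPM in WT TAC, 65.8 CPM in T497A sham, and 61.6 CPM in WT sham. It rose in WT (0.68 ± 0.06, adjusted p 7.98e-07). Among 26 genes of the dystroglycan complex and other laminin receptors the calls were 6 higher and 12 lower in T497A, 7 higher and 10 lower in WT and 8 higher and 8 lower between the TAC groups, with medians of -0.11, -0.10 and -0.00. Dag1, the dystroglycan that binds laminin outside the myocyte, averaged 505 CPM in T497A TAC, 525 CPM in WT TAC, 702 CPM in T497A sham, and 578 CPM in WT sham. It was lower in T497A TAC than in T497A sham (-0.48 ± 0.06, edgeR adjusted p 8.07e-05). Sdc3, a syndecan, averaged 107 CPM in T497A TAC, 163 CPM in WT TAC, 79.3 CPM in T497A sham, and 81.5 CPM in WT sham. It rose in WT (1.00 ± 0.07, edgeR adjusted p 1.15e-07). Between the sham groups the 4 lists had 1 higher and 2 lower (adaptors), 2 and 3 (basement membrane), 4 and 3 (dystroglycan complex) and 0 and 2 (ligands). Over all genes 2.99% were higher and 2.8% lower there. The 12 cardiomyocyte markers, for comparison, summed to 78703 to 83806 CPM in T497A TAC, 44249.7 to 53437 CPM in WT TAC, 96434 to 98747 CPM in T497A sham, and 90624 to 98287 CPM in WT sham. They were called 1 higher and 6 lower in T497A and 0 higher and 11 lower in WT, and the part of a changed mix of cells in the results above was not tested.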

How the data were processed

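The authors deposited 1 table of raw counts, whole numbers for each gene, with a column for each of the 12 libraries, and all columns were used. The submitters' processing notes name Trim Galore 0.6.4, STAR 2.7.3a, featureCounts, Subread 1.6.3 and limma 3.50.3 as tools and mm10 and GRCh38 as builds, with no role or order. Which annotation and strand setting went into the counting was not given in the sources used here, and reads of overlapping genes are uncertain. The labels' protocols name total RNA of cardiac tissue, a messenger RNA library kit and reads from 1 end.

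Symbols and positions came from GENCODE M21 (GRCm38): of 55401 gene IDs, 54349 matched with version, 792 without it and 260 not at all. edgeR 4.0.16 in R 4.3.3 was run with filterByExpr (17699 genes), TMM factors and a robust quasi-likelihood F test with 1 mean for each of the 4 groups, and p was Benjamini-Hochberg adjusted over all genes tested in each of 7 comparisons (6 pairs of groups and the interaction). The same steps were also run on counts simulated from the means and spread of these libraries. Replicates differed by more than counting error, with a chi-square of 10.6 to 149 per degree of freedom, and none was a duplicate of another. WT TAC 2 had 82.8 with WT TAC 1 and 149 with WT TAC 3, while WT TAC 1 with WT TAC 3 had 14.0. Alternatives were DESeq2 1.42.0, limma-voom 3.58.1, DESeq2 size factors, totals alone, no filter or a stricter one (1 CPM in 6 libraries), a replicate block, only the groups compared, no T497A sham group, and each library left out.

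One member is included in the counts and is not reported here. The members and gene lists were chosen with earlier results of these data known. Values in every library are printed for members called in at least 1 comparison and averaging 1 CPM or more, and of each list up to 4 members with the smallest p.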

Additional observations from a re-analysis of the deposited data

Results flagged for a closer look

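The interaction test called 14.2% of all genes tested below 0 and 15.3% above 0, against 56.8% and 8.11% of the 37 chains. In 23 chains the response to TAC differed between the genotype labels by the interaction test (edgeR adjusted p under 0.05), and each is given as the difference in log2 fold change, T497A minus WT. Among the leukocyte chains these were Itgae at -4.21, Itgax at -2.26, Itgb7 at -1.80, Itgam at -1.54 and Itgb2 at -1.43. Among the other integrin beta chains they were Itgb3 at -2.20, Itgb4 at -1.35, Itgb8 at -1.13, Itgb5 at -0.93 and Itgb1 at -0.56, and Itgb6 at 1.26. Of the integrin alpha chains, Itga11 was at -1.82, Itga10 at -1.39, Itga2 at -1.21, Itga4 at -1.05, Itga3 at -0.56 and Itga6 at 0.43. Of the laminin chains, Lamc1 was at -0.53, Lamb1 at -0.48, Lama5 at -0.47, Lama2 at -0.37, Lama4 at -0.27 and Lamb3 at 0.59. The difference uses the T497A sham libraries, which carry Xist and lack Ddx3y, so for each of them it cannot be told apart from what else sets that group apart. Leaving out single libraries ended 4 of these calls. Lamb3 was no longer called without WT sham 1, WT sham 3, T497A sham 1, T497A sham 3, WT TAC 1, WT TAC 2, T497A TAC 1 or T497A TAC 3 (log2 fold changes 0.46 to 0.62, adjusted p 0.0573 to 0.0981). Lama5 was not without WT sham 1, WT sham 2, WT sham 3, T497A sham 1, T497A sham 3, WT TAC 2, T497A TAC 2 or T497A TAC 3 (log2 fold changes -0.47 to -0.37, adjusted p 0.0575 to 0.0837). Lama4 was not without WT sham 1, WT sham 2, T497A sham 2, T497A sham 3, WT TAC 1 or T497A TAC 1 (log2 fold changes -0.27 to -0.23, adjusted p 0.0519 to 0.0737). Itga4 was not without WT sham 1, WT sham 2, T497A sham 1, WT TAC 2, T497A TAC 1 or T497A TAC 3 (log2 fold changes -1.05 to -0.73, adjusted p 0.0525 to 0.0684). Beyond leaving out each library in turn, no test for a single outlying library was run within the groups of 3.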

How the results depend on the processing

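Of 259 pairs of a chain and a comparison, 136 were called, and 106 of these kept the call in every alternative. Another 30 lost it in at least 1, and 38 of the 123 uncalled pairs gained it in at least 1. With totals alone in place of TMM factors the median log2 fold change over all genes moved to 0.36 in WT TAC against WT sham, -0.27 in T497A TAC against WT TAC, -0.31 for the interaction and 0.29 in WT TAC against T497A sham (0.03, -0.02, -0.01 and 0.01 with TMM). Chains lower in T497A TAC against T497A sham were then 3 (6 with TMM), and those above 0 in the interaction 1 (3 with TMM), while Itga7 in WT (0.22) and Itga6 in T497A TAC against WT TAC (-0.23) changed sign. Chains called lower in WT TAC against WT sham were 4 with limma-voom (2 in the main test), those lower in WT TAC against T497A sham 5 (3), and those higher in T497A sham against WT sham 7 with the DESeq2 test (3). Lower in T497A TAC against WT sham were 1 with the DESeq2 test, 2 with limma-voom, 2 with only the groups compared and 1 without the T497A sham group (0). All other counts stayed within 1.5 times under these alternatives.

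Leaving out 1 library at a time, chains called in T497A TAC against T497A sham were 7 to 11 higher and 3 to 7 lower, in WT TAC against WT sham 26 to 27 and 2 to 4, in T497A sham against WT sham 2 to 6 and 1 to 4, in T497A TAC against WT TAC 2 and 18 to 24, in the interaction 2 to 3 and 18 to 23, in T497A TAC against WT sham 5 to 11 and 0 to 2, and in WT TAC against T497A sham 20 to 24 and 2 to 5.

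The replicate numbers share only a number: of 18 same-number pairs between groups, 0 had a correlation of deviations over 0.1 (range -0.113 to 0.0742). With the replicate number as a block, 3 chains were lower in T497A TAC against T497A sham, and no other count moved by over 1.5 times. Itga10, Lamb2 and Itga3 lost their calls in that comparison (edgeR adjusted p 0.0565, 0.0558 and 0.0619). Calls lost with this block are not listed beside the chains above. Lama1 and Itgad held fewer than 10 reads in some libraries, and the other chains at least 10 in all 12.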
